A study of Mus musculus with 6 samples.

Results

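The lysosomal enzymes and membrane proteins described here are 43 mouse genes chosen by name, among them the cathepsins, the glycosidases, the sulfatases, the lipid hydrolases and the proteins of the lysosomal membrane. Of these, 42 had a probe set that GEO's platform annotation assigns to a single gene symbol, out of 18193 genes tested, and where a gene had several, the brightest of them over all 6 arrays stood for it. Cd63, a tetraspanin of late endosomes and lysosomes, had no such probe set named here and was not analysed here. The values are from total RNA of dissected hippocampi of mice aged 2 to 3 months, on Affymetrix mouse expression arrays. Of the mice, 3 were IκBα-deficient (IκBαfl/-;Nestin-Cre) and 3 were littermate controls (IκBαfl/-). IκBα, encoded by Nfkbia, holds NF-κB transcription factors in the cytoplasm. By these genotypes both groups carry 1 floxed and 1 null allele and differ by the Nestin-Cre transgene, so the controls are heterozygous, and no animals with Cre alone were analysed here. Nestin-Cre acts in the neural lineage, which forms neurons, astrocytes and oligodendrocytes. Microglia and the macrophages at the brain's borders come from another lineage.

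Lysosomes break down proteins, glycans and lipids delivered by endocytosis, phagocytosis and autophagy. Many soluble hydrolases reach them through mannose phosphate tags, a proton pump in the membrane keeps the lumen acidic, and membrane proteins protect the membrane and export the products. In the brain, loss of single members causes storage diseases of neurons and white matter, and microglia hold some of these proteins at high levels. Many lysosomal genes carry a short palindromic E-box near their start, which the transcription factor TFEB and its relatives bind.

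None of the 42 lysosomal genes passed the test between genotypes. With limma and a Benjamini-Hochberg threshold of 0.05 over all genes, 0 of 42 members were called, beside 0.0% of all genes. In IκBα-deficient hippocampi 31 of 42 stood higher and 11 lower, where 52.6% of all genes stood higher, and the median difference, IκBα-deficient minus control, was 0.057 on the log2 scale, beside 0.0058 over all genes. At an unadjusted p under 0.05 there were 8 members, 7 higher and 1 lower, or 19.0% of the members, beside 4.71% of all genes (3.33% higher and 1.39% lower). For 9 members (21.4%) every IκBα-deficient array exceeded every control, beside 5.94% of all genes. For 1 member (2.38%) every IκBα-deficient array was below, beside 3.82%. The differences were small. They were under 0.10 in size for 28 of 42 members and at or above 0.20 for 8, and the standard errors ran from 0.057 to 0.22.

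The widest differences were those of Galc, which was lower in IκBα-deficient animals, and Lyz2, which was higher. Gla and Cd68 were the next lowest, and Cln3, Ctsc, Naglu, Manba and Laptm5 the next highest. All values are log2 values made by RMA, given for IκBα-deficient arrays 1, 2 and 3 and then for control arrays 1, 2 and 3. The error of a difference is its SE with n = 3 arrays per group. Levels of different genes are not comparable on these arrays, so only differences of 1 gene between arrays are described.

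**Figure D1:**
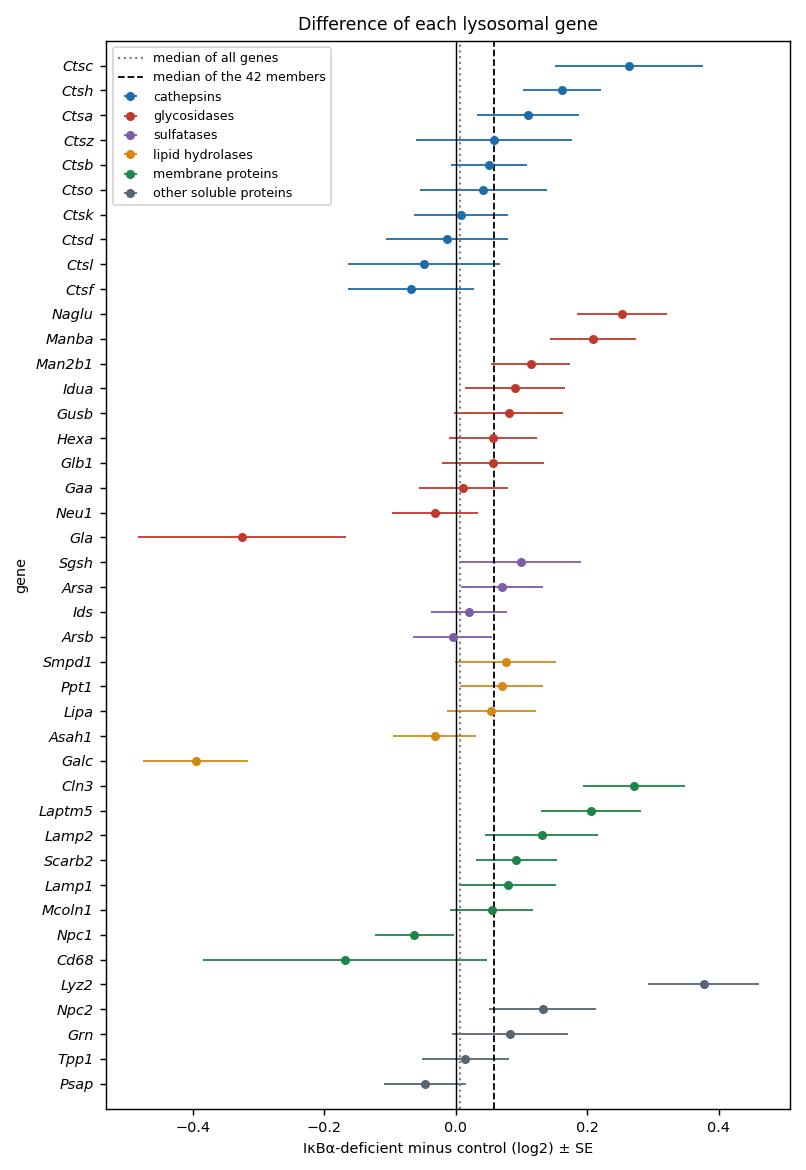
The difference of each of the 42 lysosomal genes, IκBα-deficient minus control, is plotted on the log2 scale with its standard error from limma, coloured by role. The dashed line is the median of the members, 0.057, the dotted line the median of all genes, 0.0058, and most points lie to the right of 0, with Galc at -0.40 and Lyz2 at 0.38 at the ends.

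A search of promoter sequences showed which members share the E-box. The RefSeq promoter windows of GRCm38.p6, 250 bases before to 50 bases after a gene's start, were matched for 39 of the 43 genes, in 42 windows. Ctsb, Ctsh, Asah1 and Npc1 were not matched. The letters CACGTG, which read the same on both strands, stood in the windows of 13 of 39 members (33.3%), beside 8.09% of 27025 genes. The longer form TCACGTGA, which contains CACGTG, stood in 5 of 39 (12.8%), beside 1.12% of genes. The κB consensus, the motif of NF-κB, searched on both strands, matched in 7 of 39 (17.9%), beside 9.55%, and those 7 were Ctsz, Ctso, Scarb2, Lamp1, Psap, Grn and Neu1. Shown here are the stretches of the 5 members with TCACGTGA, of Lamp1, which had CACGTG at 4 places, and of Naglu, a gene with CACGTG whose arrays did not overlap between genotypes. They are written 5′ to 3′ on the gene's strand, and capitals mark the motif.
Ctsa, chr2:164833743-164833772, plus strand: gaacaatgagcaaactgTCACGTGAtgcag
Ctsd, chr7:142387908-142387937, minus strand: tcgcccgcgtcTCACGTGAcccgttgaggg
Cln3, chr7:126583340-126583369, minus strand: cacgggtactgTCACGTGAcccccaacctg
Gla, chrX:134601188-134601238, minus strand: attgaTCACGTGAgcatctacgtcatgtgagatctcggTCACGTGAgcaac
Mcoln1, chr8:3500462-3500491, plus strand: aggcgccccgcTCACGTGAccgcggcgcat
Lamp1, chr8:13159096-13159155, plus strand: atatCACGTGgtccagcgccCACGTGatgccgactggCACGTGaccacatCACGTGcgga
Naglu, chr11:101070009-101070038, plus strand: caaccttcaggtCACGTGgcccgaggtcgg

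Counted from the gene's start at 0, the first base of TCACGTGA stood at -13 in the window shown for Ctsa, at -46 for Mcoln1, at -99 for Ctsd and at -122 for Cln3, and Gla held it at -228 and -195. The median difference was 0.056 for the 13 members with CACGTG, 9 of them higher, and 0.070 for the 25 without it, 20 of them higher. It was 0.055 for the 5 with TCACGTGA and 0.070 for the 33 without. For the κB consensus the medians were 0.058 in 7 members with it and 0.070 in 31 without. Whether members with and without a motif differ was not tested. Among the genes with TCACGTGA, Cln3 was higher by 0.27 and Gla was at -0.33.

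The arrays also differed in the targeted gene, in cell type markers and in RNA control probe sets. Nfkbia, the targeted gene, was at 9.06, 9.13 and 8.66 in IκBα-deficient arrays and 10.39, 10.35 and 10.31 in controls, without overlap, a difference of -1.40 with an adjusted p of 0.057 (limma). That is the brightest of its 5 probe sets. In a limma fit over all single-symbol probe sets its adjusted p was 0.047. Others there differed by -1.77, -1.74 and -1.83, at adjusted p of 0.0012, 0.0048 and 0.033. The remaining probe set of Nfkbia differed by -0.35, with overlap. Hippocampal neuron markers averaged above the array median in 11 of 11 genes and were lower in 9 of 11, with list means of 9.82, 9.83 and 9.92 in IκBα-deficient arrays and 9.88, 10.04 and 10.01 in controls. Of these, Tdo2, C1ql2, Spink8 and Lct differed by -0.38, -0.28, -0.32 and -0.27, and Neurod6 by 0.24. Astrocyte markers were higher in 5 of 9, with means of 11.38, 11.35 and 11.32 in IκBα-deficient arrays and 11.25, 11.28 and 11.30 in controls. Of the 9, 3 lay above and 3 below every control, beside 5.94% and 3.82% of all genes. Those above, Aqp4, Gfap and Sox9, differed by 0.45, 0.30 and 0.18. Those below, S100b, Slc1a2 and Aldoc, differed by -0.14, -0.11 and -0.063. IκBα-deficient array 2 stood apart in its RNA control probe sets, with a 3′ minus 5′ difference of 2.02, beside 0.65 and 0.61 on the other IκBα-deficient arrays and 0.56 to 0.73 in controls. Choroid plexus markers, of the epithelium next to the hippocampus, were higher in 11 of 11 measured genes, with list means of 8.73, 8.13 and 7.76 in IκBα-deficient arrays and 7.90, 5.75 and 5.68 in controls, and 3 of the 11 averaged below the array median. Meninges markers were higher in 10 of 10, with means of 7.87, 8.74 and 7.80 in IκBα-deficient arrays and 7.74, 7.78 and 7.26 in controls. Markers of border macrophages were higher in 5 of 7, with means of 5.92, 6.23 and 5.76 in IκBα-deficient arrays and 5.85, 5.74 and 5.74 in controls, and 4 of the 7 averaged below the array median. Microglia markers were higher in 8 of 14, with means of 8.88, 8.63 and 8.93 in IκBα-deficient arrays and 8.70, 8.77 and 8.83 in controls. The part of cell types and RNA quality in the lysosomal values was not tested. Fits with some of these values as covariates, on 6 arrays, cannot separate them from genotype or from a single array. Choroid plexus means largely followed genotype, apart from control array 1, which lay above IκBα-deficient array 3, so that the groups overlapped. Meninges, border macrophage and 3′ to 5′ values mainly marked IκBα-deficient array 2. In bulk tissue, fewer cells of a type and less RNA per cell cannot be told apart.

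**Figure D2:**
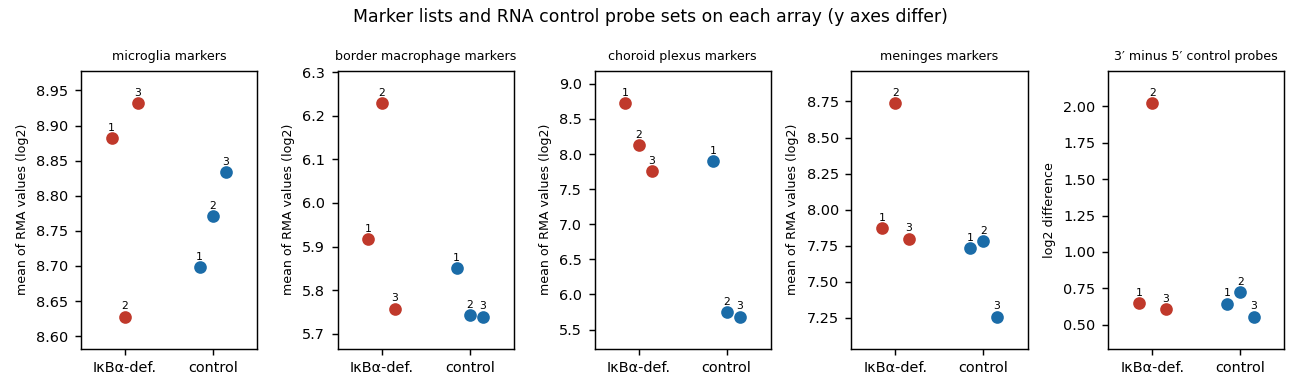
Each point is 1 array, numbered by its repeat, with IκBα-deficient arrays in red on the left and controls in blue on the right. The first 4 panels give the mean RMA value (log2) of a marker list and the last the 3′ minus 5′ difference of the control probe sets (log2), with y axes that differ and do not start at 0. IκBα-deficient array 2 is highest in border macrophage and meninges markers and in the 3′ to 5′ difference and lowest in microglia markers. Control array 1 has choroid plexus markers at 7.90, above IκBα-deficient array 3 at 7.76, so the groups overlap.

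The lean of the members toward higher values was widest on IκBα-deficient array 2. That array exceeded all 3 controls for 29 of 42 members (69.0%), beside 40.1% of all genes, and was the highest of the 6 arrays for 25. It lay below all controls for 11 members (26.2%), beside 23.7% of all genes. IκBα-deficient array 1 exceeded the controls for 17 members (40.5%), beside 25.3% of all genes, and array 3 for 20 (47.6%), beside 23.1%. The median member stood 0.030, 0.14 and 0.034 above its control mean on arrays 1, 2 and 3, where the median of all genes stood at -0.0026, 0.040 and -0.0039. Without IκBα-deficient array 2, 31 of 42 members were higher, 26 of them among the 31 higher with it, and the median difference was 0.034. In that fit 6 of 42 members had an unadjusted p under 0.05, beside 943 of 18193 genes (5.18%). With the 3′ to 5′ difference as a covariate that count was also 6 of 42, beside 982 of 18193 genes (5.4%). The members spread more in the IκBα-deficient group, whose SD was the larger for 32 of 42 (76.2%), beside 62.4% of all genes.

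**Figure D3:**
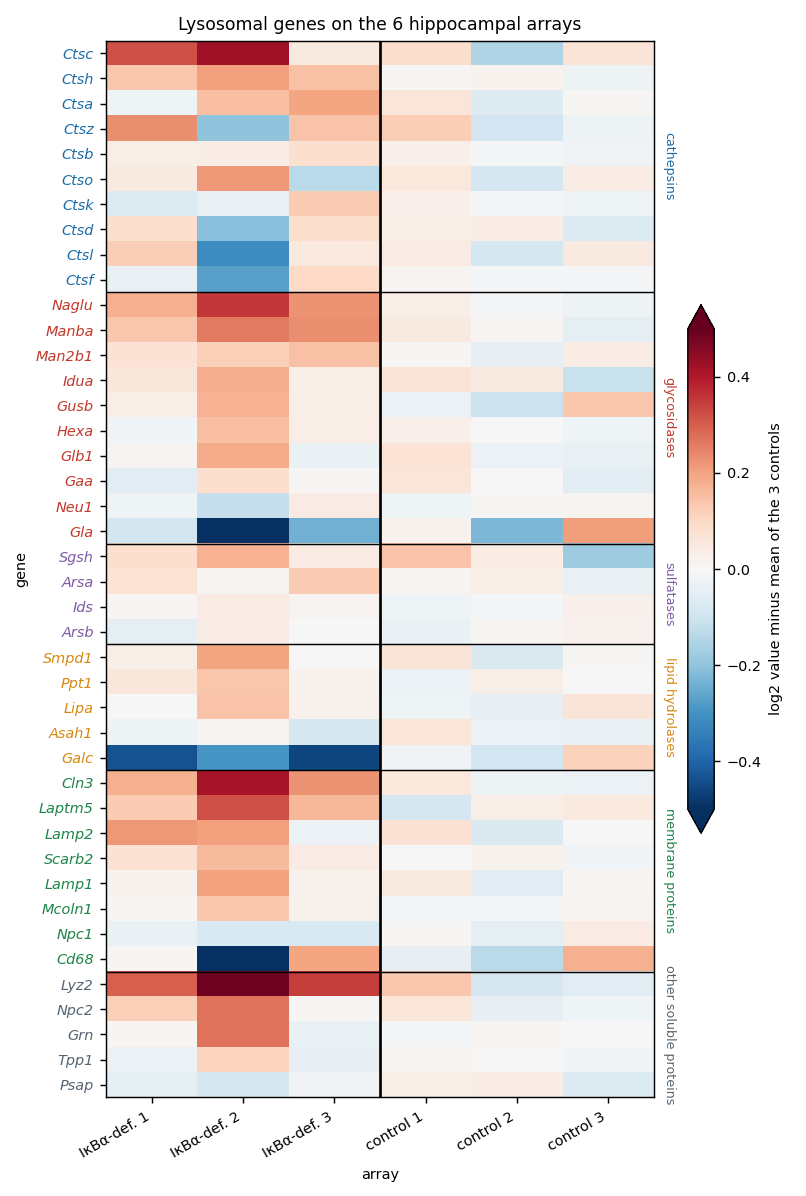
Rows are the 42 lysosomal genes, grouped by role and ordered by difference, and columns are the 6 arrays, with IκBα-deficient arrays left of the line. Colour gives the log2 value minus the mean of the 3 controls, red above and blue below, with the scale ending at 0.5 in both directions. Galc is blue and Lyz2 red on all 3 IκBα-deficient arrays, while Cd68, Ctsl, Ctsf and Ctsd are at their bluest on array 2.

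The cathepsins are the proteases of the lysosome. Of 10, 7 were higher and 3 lower in IκBα-deficient hippocampi, with a median difference of 0.046, and 0 passed, at adjusted p of 0.963 to 0.997 (limma). Ctsh, a cysteine cathepsin that acts as an aminopeptidase, was at 8.30, 8.37 and 8.31 in IκBα-deficient arrays and 8.17, 8.19 and 8.14 in controls. Each IκBα-deficient array exceeded every control, and the difference was 0.16 ± 0.059, or 1.12-fold. Its second probe set had the same sign, at 0.26, and did not overlap between groups either. Ctsc, the dipeptidyl peptidase that activates granule serine proteases of immune cells, was at 8.60, 8.70 and 8.32 in IκBα-deficient arrays and 8.37, 8.13 and 8.34 in controls. Arrays 1 and 2 stood high while array 3 lay within the control range, and the difference was 0.26 ± 0.11, with 1 of its 3 probe sets of the other sign. It was 0.12 with the choroid plexus markers as a covariate.

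Ctsb, a cysteine protease, was at 12.68, 12.68 and 12.72 in IκBα-deficient arrays and 12.67, 12.64 and 12.63 in controls. The groups did not overlap, but the difference was 0.050 ± 0.058. The 4 other probe sets of the gene had the other sign, at -0.033, -0.036, -0.00050 and -0.34. The last was at 10.60, 9.12 and 10.53 in IκBα-deficient arrays and 10.49, 10.24 and 10.52 in controls, so low on IκBα-deficient array 2. The mean of all probe sets of Ctsb differed by -0.072. Ctsa, the carboxypeptidase that also protects the sialidase Neu1, differed by 0.11 ± 0.078.

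Ctsz, a carboxypeptidase, was at 10.70, 10.26 and 10.61 in IκBα-deficient arrays and 10.59, 10.37 and 10.44 in controls. Ctsl, an endopeptidase, was at 11.54, 11.11 and 11.47 in IκBα-deficient arrays and 11.47, 11.34 and 11.47 in controls. In both, IκBα-deficient array 2 was the lowest of the 6. Ctsd, the main aspartic protease, was at 11.24, 10.95 and 11.25 in IκBα-deficient arrays and 11.19, 11.20 and 11.09 in controls. Ctsf, a cysteine protease, was at 9.37, 9.14 and 9.51 in IκBα-deficient arrays and 9.42, 9.40 and 9.41 in controls. Here too IκBα-deficient array 2, the array with the wide 3′ to 5′ difference, was the lowest, and the differences of these 4 genes ran from -0.068 for Ctsf to 0.058 for Ctsz. Without that array they were 0.19 for Ctsz, 0.085 for Ctsl, 0.085 for Ctsd and 0.032 for Ctsf. Ctsk and Ctso, further cysteine cathepsins, differed by 0.0073 and 0.041.

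The glycosidases trim sugars from glycoproteins, glycosaminoglycans and glycolipids. Of 10, 8 were higher and 2 lower, with a median difference of 0.069, 3 exceeded every control and 0 passed, at adjusted p of 0.963 to 0.994 (limma). Naglu, the N-acetylglucosaminidase of heparan sulfate breakdown, was at 6.34, 6.51 and 6.39 in IκBα-deficient arrays and 6.19, 6.15 and 6.13 in controls. The lowest IκBα-deficient array exceeded the highest control, and the difference was 0.25 ± 0.069, or 1.19-fold. Manba, the β-mannosidase, was at 7.76, 7.89 and 7.86 in IκBα-deficient arrays and 7.67, 7.63 and 7.58 in controls. Again the groups were apart, by 0.21 ± 0.065, or 1.16-fold. Man2b1, the lysosomal α-mannosidase, was at 10.08, 10.12 and 10.15 in IκBα-deficient arrays and 10.01, 9.96 and 10.04 in controls, apart by 0.11 ± 0.060. Across the alternatives run, the difference of Manba ran from 0.16 to 0.25, that of Man2b1 from 0.094 to 0.13 and that of Naglu, which had no value where dim genes were left out, from 0.17 to 0.29.

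Gla, the α-galactosidase of globoside breakdown, was at 6.57, 6.02 and 6.43 in IκBα-deficient arrays and 6.68, 6.44 and 6.87 in controls. The groups overlapped, since IκBα-deficient array 1 lay above control array 2, and IκBα-deficient array 2 was the lowest. The difference was -0.33 ± 0.16, and -0.17 without array 2, while the other 2 probe sets, both below the array median, differed by -0.061 and 0.019. It was -0.026 with the meninges markers as a covariate. Idua, the iduronidase of heparan and dermatan sulfate, differed by 0.091 ± 0.076 and Hexa, a subunit of β-hexosaminidase, by 0.057 ± 0.067. The β-glucuronidase Gusb, the β-galactosidase Glb1, the glycogen-splitting Gaa and the sialidase Neu1 had differences from -0.031 for Neu1 to 0.080 for Gusb. Other probe sets of Neu1 differed by -0.26, with every IκBα-deficient array below every control, and by -0.067, with overlap. The other probe set of Gusb differed by -0.26, with overlap.

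The sulfatases remove sulfate from glycosaminoglycans and sulfatide. Of 4, 3 were higher and 1 lower, with a median difference of 0.045, no gene lay apart and 0 passed, at adjusted p of 0.963 to 0.997 (limma). Sgsh, the heparan sulfamidase, was at 7.09, 7.18 and 7.05 in IκBα-deficient arrays and 7.15, 7.05 and 6.83 in controls. Control array 3 stood low, and the difference of 0.098 ± 0.092 was 0.0098 without it. Arsa, the sulfatase of the myelin lipid sulfatide, was at 9.69, 9.63 and 9.75 in IκBα-deficient arrays and 9.63, 9.65 and 9.58 in controls. The groups overlapped, with a difference of 0.070 ± 0.062. Ids, the iduronate sulfatase, differed by 0.020 with a 95% confidence interval of -0.11 to 0.15, and Arsb, which acts on dermatan sulfate, by -0.0048.

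The lipid hydrolases held the lowest difference of all members. Of 5, 3 were higher and 2 lower, with a median of 0.054, and 0 passed, at adjusted p of 0.853 to 0.975 (limma). Galc, which splits galactosylceramide, the main glycolipid of myelin, was at 8.43, 8.57 and 8.41 in IκBα-deficient arrays and 8.85, 8.77 and 8.98 in controls. Every IκBα-deficient array lay below every control. The difference was -0.40 ± 0.080, 1.32-fold lower, with a 95% confidence interval of -0.58 to -0.21 and an adjusted p of 0.853 (limma). It ran from -0.45 to -0.34 with each array left out in turn, was -0.37 with the choroid plexus covariate, and was -0.44 with the 3′ to 5′ covariate. It rests on 1 probe set. The other 2 averaged 4.94 and 3.70 in IκBα-deficient arrays, below the array median, and differed by 0.14 and -0.033, so that the mean of all 3 differed by -0.098. Oligodendrocyte markers were higher in 6 of 7 genes, with list means of 11.68, 11.41 and 11.52 in IκBα-deficient arrays and 11.52, 11.36 and 11.56 in controls, which overlapped.

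Ppt1, the thioesterase that removes palmitate from proteins, was at 10.39, 10.47 and 10.35 in IκBα-deficient arrays and 10.31, 10.36 and 10.33 in controls. The groups overlapped through IκBα-deficient array 3, with a difference of 0.070 ± 0.063 and 2 of 5 probe sets of the other sign. Without IκBα-deficient array 2 it was 0.036. Smpd1, the acid sphingomyelinase, differed by 0.076 ± 0.077, Lipa, the acid lipase of cholesteryl esters, by 0.054 ± 0.068, and Asah1, the acid ceramidase, by -0.032 ± 0.063.

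Among the membrane proteins 6 of 8 measured were higher and 2 lower, with a median of 0.085. For 3 (37.5%) every IκBα-deficient array exceeded every control, beside 5.94% of all genes. Of the 8, 0 passed, at adjusted p of 0.963 to 0.964 (limma). Cln3, a multispanning protein whose loss causes juvenile Batten disease, was at 7.26, 7.49 and 7.31 in IκBα-deficient arrays and 7.14, 7.06 and 7.05 in controls. The groups were apart, by 0.27 ± 0.078, or 1.21-fold, while its other probe set differed by 0.0063. That probe set was at 6.78, 6.33 and 6.97 in IκBα-deficient arrays and 6.69, 6.63 and 6.75 in controls. On it IκBα-deficient array 2 was below every control, and arrays 1 and 3 were above. Laptm5, a lysosomal transmembrane protein of haematopoietic cells and microglia, was at 9.33, 9.53 and 9.37 in IκBα-deficient arrays and 9.12, 9.24 and 9.26 in controls. It lay apart by 0.21 ± 0.077, and by 0.31 with the choroid plexus covariate. All 5 of its probe sets had the same sign, but the other 4 differed by 0.013 to 0.10. With probe sets whose names end in _a_at, _s_at or _x_at left out, the difference was 0.013. Scarb2, which carries β-glucocerebrosidase to the lysosome, was at 12.17, 12.26 and 12.14 in IκBα-deficient arrays and 12.09, 12.11 and 12.08 in controls. It lay apart by 0.092 ± 0.062, and by 0.057 without IκBα-deficient array 2.

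Lamp1, a main glycoprotein of the lysosomal membrane, differed by 0.079 ± 0.074, and by 0.018 without IκBα-deficient array 2. Lamp2, which also serves chaperone-mediated autophagy, differed by 0.13 ± 0.086, with its 4 probe sets all of 1 sign. That difference was 0.00089 with the choroid plexus covariate, 0.042 with border macrophage markers and 0.21 without IκBα-deficient array 3. One of its probe sets, at 10.11 ± 0.14 in IκBα-deficient arrays and 9.84 ± 0.054 in controls (SD, n = 3 each), lay apart between groups. Npc1, the exporter of cholesterol, differed by -0.063 with a 95% confidence interval of -0.20 to 0.075, and Mcoln1, a calcium channel, by 0.055. Cd68, a glycoprotein of macrophage and microglial lysosomes, was at 7.42, 6.70 and 7.61 in IκBα-deficient arrays and 7.37, 7.27 and 7.59 in controls. IκBα-deficient array 2 alone was low, the difference of -0.17 ± 0.22 had the widest error of any member, and it was 0.10 without that array. On the same array 7 of 14 microglia markers were the lowest of the 6 arrays and 4 the highest. The 4 of 14 microglia markers that exceeded every control (28.6%, beside 5.94% of all genes), Gpr34, P2ry13, Tyrobp and Cx3cr1, differed by 0.41, 0.22, 0.13 and 0.11. P2ry12 and C1qb, low on array 2 as Cd68 was, differed by -0.15 and -0.16.

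Of the 5 other soluble proteins 4 were higher and 1 lower, with a median of 0.082, and 0 passed, at adjusted p of 0.963 to 0.991 (limma). Lyz2, the lysozyme of myeloid cells, was at 8.24, 8.43 and 8.29 in IκBα-deficient arrays and 8.08, 7.86 and 7.89 in controls. Each IκBα-deficient array exceeded every control, with control array 1 the nearest. The difference of 0.38 ± 0.084, or 1.30-fold, had a 95% confidence interval of 0.18 to 0.57 and an adjusted p of 0.963 (limma). Lyz2 has a near-identical copy, Lyz1, and its 1 probe set with a single symbol may read both. The difference was 0.32 without IκBα-deficient array 2 and 0.25 with the choroid plexus covariate. Lyz2 was among the 25 of 42 members that were highest on IκBα-deficient array 2. That array was also the highest for 8 of 10 meninges markers and for 5 of 7 border macrophage markers. Among the border macrophage markers, Mrc1, the mannose receptor, was at 6.30, 6.75 and 5.96 in IκBα-deficient arrays and 5.98, 5.83 and 5.74 in controls. It overlapped through IκBα-deficient array 3. F13a1, a clotting factor subunit, was at 6.59, 7.31 and 6.32 in IκBα-deficient arrays and 6.12, 6.08 and 6.23 in controls, without overlap. Pf4, Cbr2, Cd163, Lyve1 and Ms4a7 differed by 0.12, 0.13, 0.090, -0.039 and -0.049.

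Npc2, the soluble carrier that hands cholesterol to Npc1, was at 11.61, 11.76 and 11.50 in IκBα-deficient arrays and 11.56, 11.45 and 11.47 in controls. The groups overlapped through IκBα-deficient array 3, and the difference was 0.13 ± 0.081. It was 0.063 without IκBα-deficient array 2, 0.024 with the border macrophage covariate and 0.048 with the choroid plexus covariate. Grn, progranulin, which is cut into peptides in lysosomes, was at 10.95, 11.21 and 10.91 in IκBα-deficient arrays and 10.93, 10.95 and 10.94 in controls. IκBα-deficient array 2 alone was high, and the difference of 0.082 was -0.013 without it. Psap, the precursor of the saposins that present lipids to hydrolases, differed by -0.047 with a 95% confidence interval of -0.19 to 0.098, and Tpp1, a tripeptidyl peptidase, by 0.014.

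**Figure D4:**
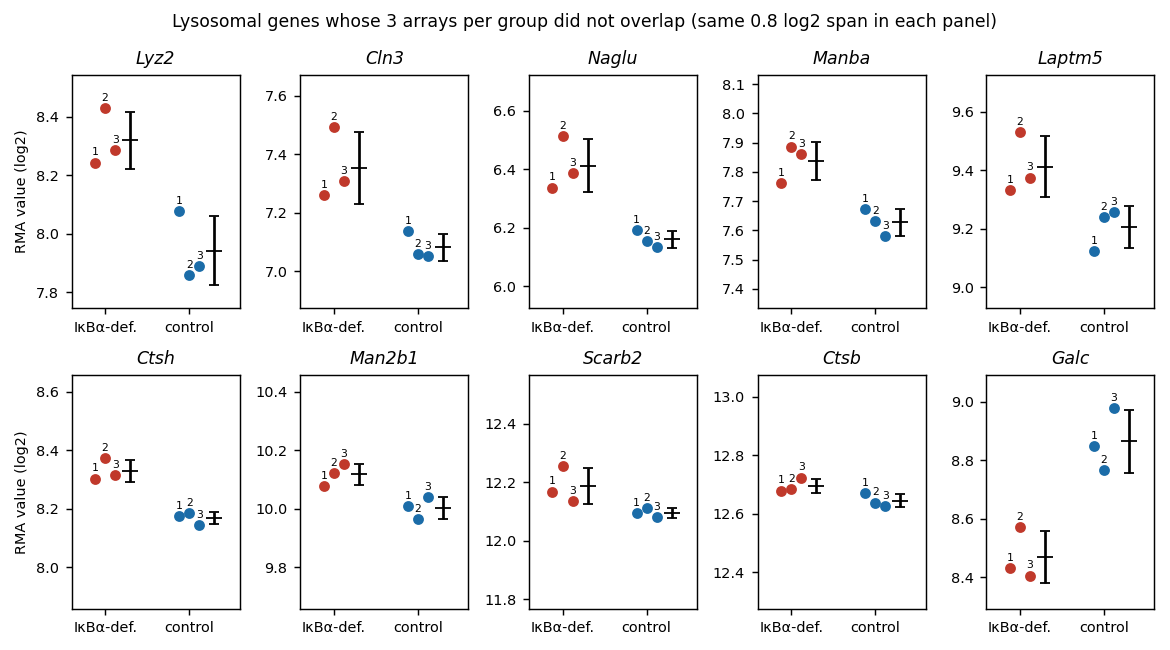
The 10 lysosomal genes whose arrays did not overlap between genotypes are shown with 1 point per array, numbered by repeat, IκBα-deficient in red on the left and control in blue on the right, and with the mean and SD of each group in black. The y axes give RMA values (log2), do not start at 0 and cover the same width in each panel. Galc is the 1 gene that is lower in IκBα-deficient arrays, and the difference is widest for Galc and Lyz2 and narrowest for Ctsb.

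With the mean of the choroid plexus markers as a covariate, 28 of 42 members were higher and the median difference was 0.036. In that fit 2 of 42 members, Galc and Laptm5, had an unadjusted p under 0.05, beside 359 of 18193 genes (1.97%). With meninges markers as a covariate, 26 were higher, and 4 of 42 had such a p, beside 1065 of 18193 genes (5.85%). With border macrophage markers, 29 were higher and the count was 5 of 42, beside 863 of 18193 genes (4.74%). With microglia markers, 31 were higher and the count was 11 of 42, beside 2136 of 18193 genes (11.7%). Without control array 1 the count was 5 of 42, beside 804 of 18193 genes (4.42%). With the mean of all probe sets of a gene it was 5 of 42, beside 759 of 18193 genes (4.17%). No member was called in any of these fits.

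Other genes of the pathway were followed in 6 lists. Of the other lysosomal hydrolases and activators, 18 of 20 measured genes were higher and 2 lower, with a median difference of 0.067, 6 of the 20 exceeded every control, beside 5.94% of all genes, and 0 were called. Arsg, a sulfatase of heparan sulfate, was at 8.33, 8.41 and 8.31 in IκBα-deficient arrays and 8.10, 8.02 and 8.11 in controls. Dnase2a, the acid nuclease that digests engulfed DNA, was at 7.56, 7.63 and 7.44 in IκBα-deficient arrays and 7.24, 7.31 and 7.22 in controls. Both lay apart, by 0.27 ± 0.063 and 0.28 ± 0.072. Dnase2a rests on 1 probe set, whose name ends in _x_at.

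Of 26 other lysosomal membrane proteins 13 were higher and 13 lower, with a median of 0.0048. Slc15a3, a peptide and histidine transporter, was at 5.58, 5.90 and 5.82 in IκBα-deficient arrays and 5.70, 5.17 and 5.21 in controls, overlapping through control array 1, and its difference of 0.40 ± 0.15 was 0.11 with the choroid plexus covariate. The sialomucin Cd164 differed by 0.25 ± 0.10, and by 0.16 without IκBα-deficient array 2. Of 17 proton pump subunits 8 were higher and 9 lower, with a median of -0.00078, and Atp6v1h and Atp6v1g1 differed by 0.14 and 0.10. Of 29 genes of sorting and regulation, a list that holds TFEB and its relatives, 13 were higher and 16 lower, with a median of -0.0016. Vps33a, a subunit of the complexes that tether membranes for fusion with lysosomes, was at 9.39, 9.41 and 9.11 in IκBα-deficient arrays and 9.06, 9.01 and 9.02 in controls. Sumf1, which activates the sulfatases, differed by 0.21 ± 0.076. In both, each IκBα-deficient array exceeded every control, beside 5.94% of all genes. With the mean of all probe sets of a gene, Vps33a differed by 0.065 and Sumf1 by 0.12. With probe sets named _a_at, _s_at or _x_at left out, Sumf1 differed by 0.019.

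Of 4 cathepsin inhibitors 1 was higher and 3 lower, with Cst6, a secreted cystatin, at 0.27 ± 0.11, which was 0.030 with the choroid plexus covariate and 0.18 without control array 2, and Cst3, cystatin C, at -0.054 ± 0.066. Of 14 autophagy genes 7 were higher and 7 lower, with a median of -0.0077. Gabarapl2, which attaches to autophagosome membranes, was at 12.09, 11.34 and 12.08 in IκBα-deficient arrays and 12.14, 12.15 and 12.16 in controls. IκBα-deficient array 2 carried most of its difference of -0.31, which was -0.062 without it. Becn1, part of the lipid kinase complex that starts autophagosomes, differed by 0.092. No gene of these lists was called, at adjusted p of 0.963 to 1.0 (limma). Whether the lists differ in their lean was not tested.

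**Figure D5:**
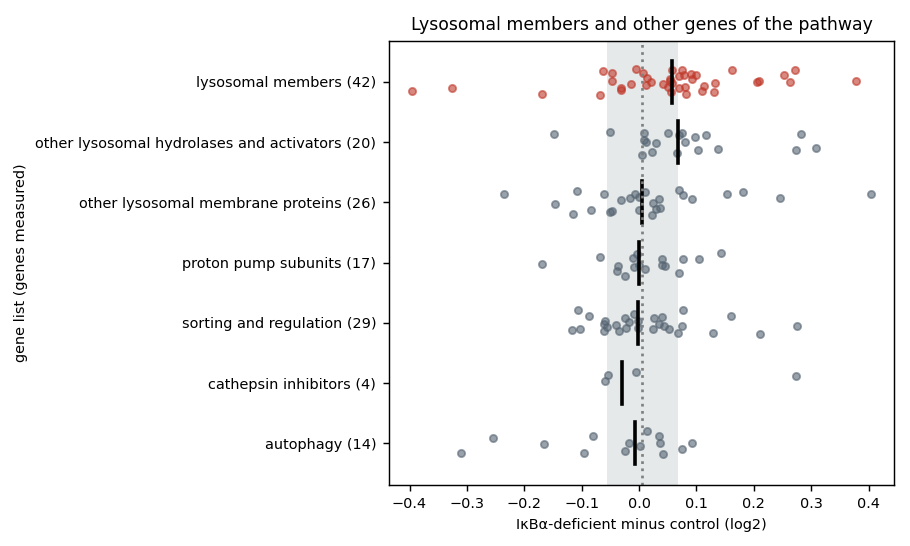
Each point is 1 gene, placed by its difference on the log2 scale, IκBα-deficient minus control, with the 42 lysosomal members in red on top and the 6 other lists in grey, spread vertically for visibility, and a black bar at each list's median. The shaded band is the interquartile range of all 18193 genes and the dotted line their median. The medians of the members and of the other hydrolases, 0.057 and 0.067, lie to the right of the dotted line, and those of the proton pump and of sorting and regulation lie near 0.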

How the data were processed

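The deposited table holds log2 values per probe set. The submitters' processing notes name RMA, which corrects background, quantile-normalizes and summarizes, so that a change shared by most genes is hidden. The sources used here give neither its version nor a genome build. Arrays have no read depth, and their number, 3 per genotype, limits the precision. Of 45101 probe sets, 64 controls were left out, and the annotation of the platform at GEO gave 34945 a single symbol, 932 several and 9160 none. By Entrez identifier 34741 matched RefSeq.

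All 18193 genes were fitted in R 4.3.3 with limma 3.58.1 (lmFit and eBayes, two-sided tests, no covariate), with p-values adjusted by Benjamini-Hochberg and a threshold of 0.05. SEs and 95% confidence intervals come from that fit, and the computation was tested on simulated data. Values on all 6 arrays are given for members whose groups did not overlap, for those with an unadjusted p under 0.05 and for the 2 of each role with the smallest p. Gla, Ctsz, Ctsl, Ctsd, Ctsf, Cd68, Grn and the single marker genes were added after their values were seen. In each other list the 2 genes with the smallest p are named. The members and lists were chosen with earlier results of these data known. Alternatives covered each array left out, normalization, dim genes, probe set choice, variance model, array weights, the repeat number and covariates, of which meninges and border macrophage markers were chosen after seeing the data. Figures were drawn with matplotlib 3.10.9.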

Additional observations from a re-analysis of the deposited data

How the results depend on the processing

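No lysosomal gene was called under any of 20 alternatives, and the lowest adjusted p of any member was 0.196 (limma). Leaving out each array in turn gave median differences of 0.034 to 0.077 and 30 to 32 members higher. In those fits 5 to 10 of 42 members had an unadjusted p under 0.05, beside 599 to 1278 of 18193 genes. The 10 came from the fit without IκBα-deficient array 3, which also had the 1278. Above every control were 11 to 13 of 42 members, beside 1707 to 2623 of 18193 genes (9.38% to 14.4%). Counts of 42 members at an unadjusted p under 0.05 are given beside those of 18193 genes. They were 2 beside 359 with the choroid plexus covariate, 4 beside 1065 with meninges and 5 beside 863 with border macrophages. Without control array 1 they were 5 beside 804, and with the mean of all probe sets 5 beside 759. That mean also left 5 of 42 members above every control, beside 895 of 18193 genes (4.92%). The cause was not tested. Over all genes, 5 were called without control array 1, 2 with the microglia covariate and at most 1 in each other fit. Deviations from the group means correlated at 0.061, 0.24 and 0.20 between arrays of the same repeat number. Between arrays of different numbers they correlated at -0.27 to 0.14. Whether the numbers mark pairs of arrays was not tested. With the replicate block, the median difference was 0.057 and 8 members had an unadjusted p under 0.05, 7 of them shared with the fit without it. Ctsc left that count and Gla joined it. Over all genes the count was 1059, beside 857.

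The sign held in all fits for 20 members and changed in some for 22, the largest of which was Cd68. Leaving out each array in turn, Ctsd ran from -0.065 to 0.085, Ctsf from -0.15 to 0.032, Ctsl from -0.13 to 0.085, Ctsz from -0.028 to 0.19, Cd68 from -0.35 to 0.10 and Grn from -0.013 to 0.14. IκBα-deficient array 2 decided the sign of Ctsf, Ctsl, Cd68 and Grn, and Ctsd also turned without control array 1 or 2, at 0.0023 and 0.0050. With the 3′ to 5′ covariate, Ctsd was at 0.078, Ctsf 0.030, Ctsl 0.084, Cd68 0.10 and Grn -0.010. With the meninges covariate, Ctsd was at 0.095, Ctsf 0.073, Ctsl 0.15, Cd68 0.28, Grn -0.052, Hexa -0.015, Idua -0.015, Sgsh -0.020, Smpd1 -0.0034, Lamp1 -0.00011, Cst3 0.018 and Gabarapl2 0.036. With the border macrophage covariate, Ctsd was at 0.10, Ctsf 0.068, Ctsl 0.098, Cd68 0.19, Grn -0.037, Smpd1 -0.012, Lamp1 -0.0023 and Cst3 0.0077. With the choroid plexus covariate, Ctsz was at -0.10 and Sgsh at -0.060. Array weights gave 0.035 for Ctsd and 0.042 for Ctsl. The mean of all probe sets gave -0.072 for Ctsb, -0.015 for Ppt1 and -0.047 for Atp6v1g1. Leaving out probe sets named _a_at, _s_at or _x_at gave 0.033 for Ctsl, -0.015 for Grn, -0.16 for Atp6v1g1 and -0.082 for Becn1.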
